A study of Homo sapiens with 6 samples.

Results

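The alpha-arrestins and the glucose-sensing transcription factors around them were followed by RNA sequencing of KYSE150, a cell line from a human squamous carcinoma of the esophagus. The members were 10 genes of the 67140 in the deposited table: the alpha-arrestins ARRDC1, ARRDC2, ARRDC3, ARRDC4 and TXNIP, the factors MLXIP (MondoA), MLXIPL (ChREBP), MLX and MNT, and thioredoxin (TXN). They were found by symbol through their Ensembl identifiers, and the set was chosen by the fold change of ARRDC4 in the contrast reported here, so their values are given as a description with no p. The control group (shCtrl, titled shNC) was 3 samples of KYSE150 cells carrying a control hairpin, and the other group (shAC007128.1) was 3 samples carrying 1 hairpin against the long noncoding RNA AC007128.1. All were grown in RPMI medium with fetal bovine serum, and the stable lines of the study were selected with puromycin. The labels do not say whether the 3 samples of a group came from separate cultures, so the errors below measure only the spread between these samples. How the 2 lines were derived and what the hairpin did cannot be told apart.

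Total counts were 55764405 to 78610457 per sample, and lower in every shAC007128.1 sample than in every shCtrl sample. The targeted AC007128.1 had 33 to 69 counts in shCtrl and 15 to 37 in shAC007128.1, a log2 fold change of -0.77 (SE, standard error, 0.51) with an adjusted p = 0.271 in the quasi-likelihood test of edgeR. A lower level of the target was thus not detected in these counts, although its mean level was 58.6% of that in shCtrl. With so few counts a decrease of that size can be missed. The study reported by qPCR that the hairpin lowered AC007128.1. Of the exonic bases of AC007128.1 21.5% and 20.7% are shared with ICA1-AS1 and ENSG00000272328 on the same strand, so its count is uncertain. Calls required a Benjamini-Hochberg adjusted p from edgeR no larger than 0.05 together with a 2-fold or larger difference in either direction (1 on the log2 scale). All 8 squamous epithelial markers were detected in every sample, with a summed level of 1851 to 1890 counts per 1000000 counted (CPM, library sizes scaled by the TMM method of edgeR) in shCtrl and 2643 to 3186 in shAC007128.1. Within this list KRT14 and KRT6A were called higher and DSG3 lower. The leukocyte list summed to 59.1 to 68 CPM in shCtrl and 14.5 to 23.8 in shAC007128.1, nearly all of it CD68, with PTPRC at 0 to 9 counts. CD68 was called lower, but 81.6% of its exonic bases are shared with ENSG00000264772 on the same strand, so its count is uncertain. The fibroblast list summed to 14.1 to 15.4 and 17 to 19 CPM, nearly all of it COL1A1 while PDGFRB was called lower, and the endothelial list to 2.12 to 3.11 and 0.302 to 2.02 CPM. The part of these differences in the results below was not tested.

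Alpha-arrestins are adaptor proteins that carry PPxY motifs. Through these they recruit NEDD4-type ubiquitin ligases to membrane proteins such as receptors and glucose transporters, which are then taken into the cell. TXNIP also binds thioredoxin. When glucose 6-phosphate builds up, MondoA or ChREBP pairs with MLX and binds carbohydrate response elements, which are paired E-box-like sites, and TXNIP and ARRDC4 are among the best known genes under this control. MNT is a repressor of the same network and pairs with MAX or MLX.

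The promoters of the members were searched for these sites because they tie the factors to their target genes. RefSeq promoters, from 250 bases before to 50 bases after the start of the gene in GRCh38.p14, were matched by symbol for all 10 members, which had 13 promoters. Capitals mark the matched letters, and each line gives the gene's own strand, 5′ to 3′.
ARRDC4, chr15:97960481-97960510, plus strand: aaacggcctgtgCACGTGcacgccggagcc
TXNIP, chr1:145996645-145996673, minus strand: gatgtgCACGAGGGCAGCACGAGcctccg
MLX, chr17:42567038-42567067, plus strand: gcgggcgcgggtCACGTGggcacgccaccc
MNT, chr17:2401236-2401265, minus strand: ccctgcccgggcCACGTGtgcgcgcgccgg
The palindromic E-box CACGTG, searched on both strands, was present in the promoters of ARRDC4, MLX and MNT. It was found in 2548 of the 35116 promoters of the table (7.26%). The paired site was CACGNG followed after 5 bases by CACGNG or CNCGTG, on either strand. Of the members TXNIP alone had it, from 88 to 72 bases before its start, and 23 of all promoters (0.0655%) had it. A looser pair, CANGNG followed after 5 bases by CANGNG or CNCNTG, was in 673 promoters (1.92%) and again in TXNIP alone of the members. The E-box of ARRDC4 lay 210 to 205 bases before its start, that of MNT 193 to 188 and that of MLX 50 to 45. These matches describe letters in the windows searched, and binding was not measured.

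TXNIP (ENSG00000265972), the best known alpha-arrestin of glucose sensing, was listed at 0 counts in all 3 shCtrl samples and in shAC007128.1 replicates 1 and 2. It had 4 counts in shAC007128.1 replicate 3. The gene occupies chromosome 1 from 145992435 to 145996579 on the minus strand of hg38 and has 3604 exonic bases, none of them shared with another gene of GENCODE v44. It did not pass edgeR's filter on low counts and has no fold change. At these depths 3 counts, taken as the smallest detectable level, correspond to 0.0373 to 0.0546 CPM. A count of 0 therefore allows up to 0.049 TPM, a level scaled like CPM after division by the exonic length, for counting error alone. That bound takes each count as 1 read, which is uncertain because low values pile up at 4, 8 and 12. Of 19892 protein-coding genes in the table, 3802 (19.1%) had no sample above 4 counts. Among 210 genes of ribosomal proteins of the cytosol and mitochondria, RNA polymerase I and II subunits and complex I subunits, 0 were that low, and the lowest had 327 counts in its highest sample. These families were picked as broadly expressed, so they cannot tell whether the counts of a single gene such as TXNIP were missed. G6PC3, a glucose 6-phosphatase that most cells use, was also listed at 0 in 5 samples and at 3 counts in shCtrl replicate 3. GENCODE v44 held 89.9% of the identifiers deposited, and whether reads of TXNIP were counted under another identifier was not tested. Why TXNIP and G6PC3 are listed so low was not tested either.

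The genes next to TXNIP were looked at after its counts were seen. POLR3GL, an RNA polymerase III subunit gene 13.6 kb away, had 1089 to 1222 counts in shCtrl and 808 to 938 in shAC007128.1. ANKRD34A, 27.9 kb away, had 211 to 256 and 71 to 90 counts. On the other side HJV, a liver and muscle gene 20.9 kb away, was at 0 in every sample, and NBPF10, 68.1 kb away, had 2724 to 3088 and 3037 to 3376. Counts were thus present on the POLR3GL side of TXNIP in both groups. On the other side, within 68.1 kb, they were present in NBPF10 alone of the genes looked at. Whether the reads counted for NBPF10 arose there was not tested.

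**Figure D1:**
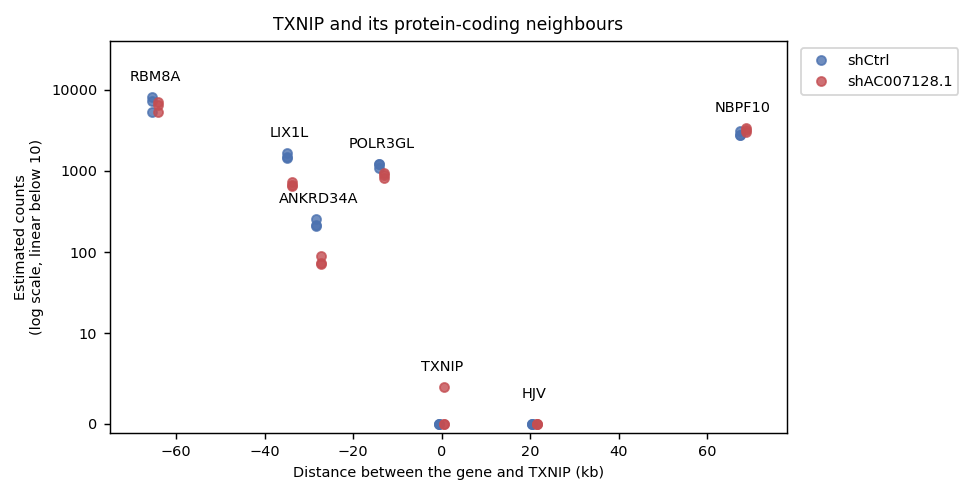
Estimated counts (log scale, linear below 10) of TXNIP and 6 protein-coding neighbours against their distance from TXNIP in kilobases, with 1 point per sample (shCtrl in blue, shAC007128.1 in red). TXNIP and HJV lie at or near 0 in every sample, while RBM8A, LIX1L, ANKRD34A, POLR3GL and NBPF10 have counts in all 6.

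ARRDC4 (ENSG00000140450), the closest relative of TXNIP in function as an adaptor for glucose transporter uptake, lies on chromosome 15 from 97960703 to 97973833 on the plus strand. Its TMM-scaled level was 9.59, 11.7 and 9.95 CPM in shCtrl replicates 1, 2 and 3. It was 112, 111 and 131 CPM in shAC007128.1 replicates 1, 2 and 3. The lowest shAC007128.1 sample thus lay far above the highest shCtrl sample. The mean went from 10.4 ± 1.11 (SD, n = 3) to 118 ± 11.4 CPM, 11.3-fold, or 3.50 on the log2 scale (SE 0.12, edgeR). This was the 24th largest log2 fold change of the 19254 genes tested. In bulk RNA, more cells with the transcript and more transcript per cell cannot be told apart.

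ARRDC3 (ENSG00000113369; chromosome 5, 91368631 to 91383317) is the arrestin known for taking up integrin beta 4. It had 27.9, 23.9 and 24.9 CPM in shCtrl and 39.7, 39.7 and 50 CPM in shAC007128.1. The groups did not overlap, and the log2 fold change was 0.76 (SE 0.12), below the limit of 1. It shares 145 exonic bases with its antisense gene ARRDC3-AS1. That gene had 94 to 119 counts in shCtrl and 22 to 36 in shAC007128.1 (log2 fold change -1.62, SE 0.30, edgeR adjusted p = 0.00457). Whether strand was used in counting is not given in the sources used here, so reads over the shared bases cannot be assigned.

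ARRDC1 (ENSG00000197070; chromosome 9, 137605685 to 137615360), which recruits the ESCRT machinery to bud vesicles from the plasma membrane, had 51.8, 57.5 and 55 CPM in shCtrl. In shAC007128.1 it had 45.7, 41.9 and 30 CPM. Every shAC007128.1 sample was below every shCtrl sample, but replicate 3 lay well below the other two of its group, and the log2 fold change was -0.48 (SE 0.16). ARRDC2 (ENSG00000105643; chromosome 19, 18001132 to 18014102) had 32.5, 30.7 and 32.6 CPM in shCtrl against 25.2, 28.1 and 23.4 CPM in shAC007128.1. Its groups did not overlap either, and its log2 fold change was -0.32 (SE 0.10). The values of the 4 detected alpha-arrestins thus lay on both sides of the control level.

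**Figure D2:**
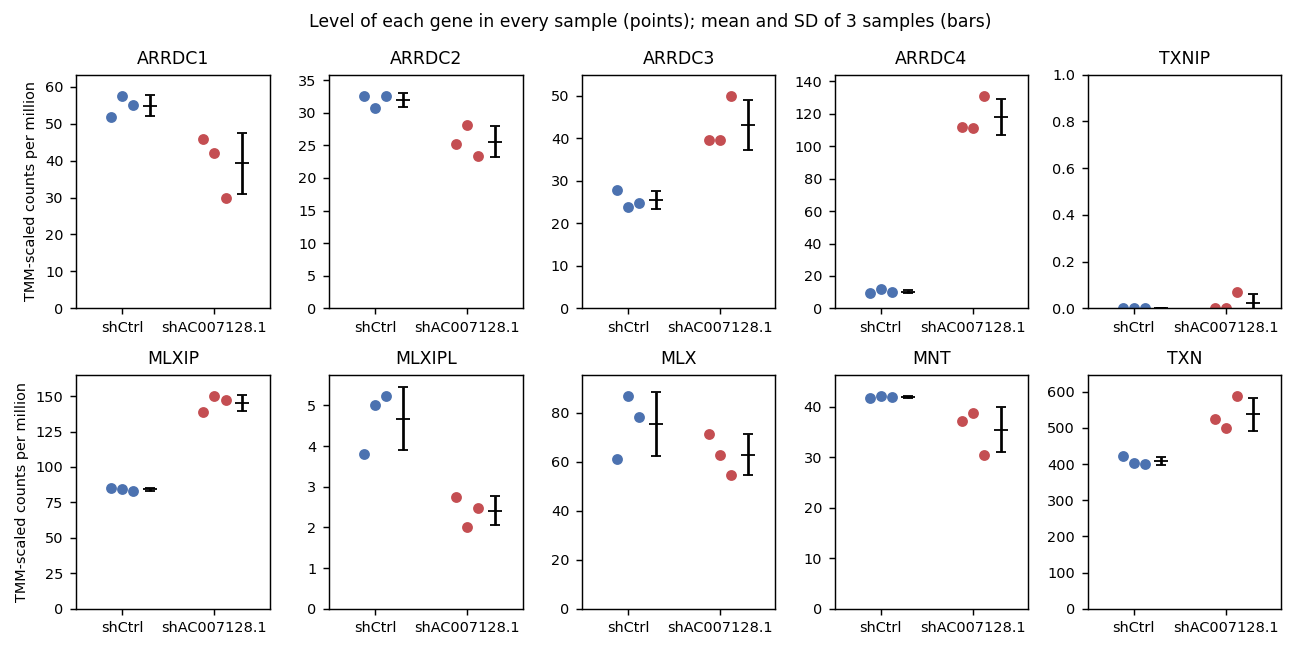
TMM-scaled CPM of each of the 10 genes in every sample (points; shCtrl in blue, shAC007128.1 in red), with the mean and SD of the 3 samples of a group, each panel on its own linear axis from 0. ARRDC4 goes from about 10.4 to 118 CPM and MLXIPL from 4.68 to 2.41 CPM, while TXNIP stays at or next to 0.

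Per exonic length the make-up of the alpha-arrestin transcripts differed between the groups. Their sum was 92.3 ± 2.54 TPM (SD, n = 3) in shCtrl and 168 ± 2.34 in shAC007128.1. ARRDC1 was the most abundant in shCtrl, with 49.8 ± 1.90% of the sum, and ARRDC4 held 8.82 ± 0.813%. In shAC007128.1 ARRDC4 held 54.1 ± 3.66% and ARRDC1 19.4 ± 4.47%. ARRDC3 held 17.7 ± 1.69% and 16.1 ± 1.75%, and ARRDC2 23.7 ± 1.08% and 10.3 ± 1.23%. The ratio of ARRDC4 to ARRDC3 in TPM went from 0.504 ± 0.0898 to 3.37 ± 0.132. With the longest annotated transcript in place of all exonic bases, ARRDC4 held 7.46 ± 0.700% in shCtrl and 49.7 ± 3.72% in shAC007128.1.

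**Figure D3:**
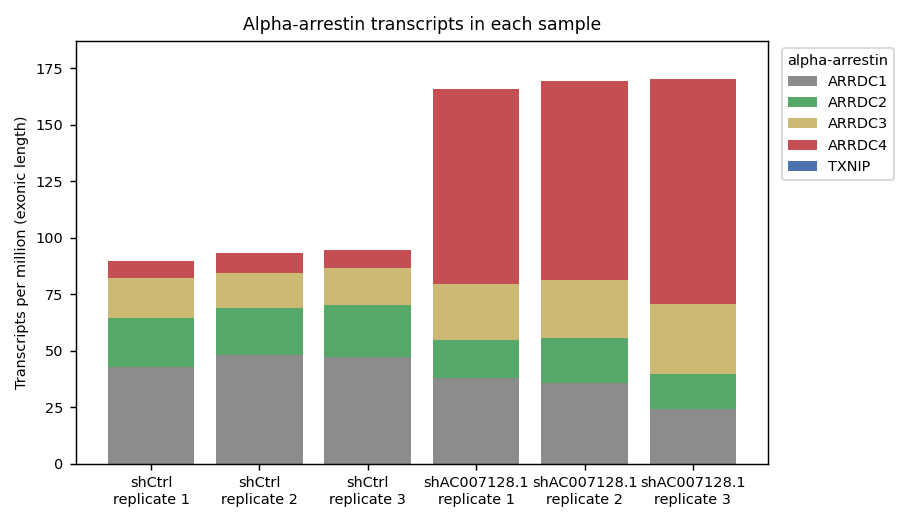
Stacked bars of the TPM of the 5 alpha-arrestins in each sample. The shCtrl bars reach 89.5 to 94.3 TPM with ARRDC1 as the largest part, and the shAC007128.1 bars reach 166 to 170 TPM with ARRDC4 as the largest part; TXNIP is too low to be seen.

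MLXIP (ENSG00000175727; chromosome 12, 122078756 to 122147344) encodes MondoA, the glucose sensor of most tissues. Its level was 85.3, 84.2 and 83.4 CPM in shCtrl and 139, 150 and 147 CPM in shAC007128.1. The shCtrl samples lay close together and all shAC007128.1 samples were above them, with a log2 fold change of 0.79 (SE 0.07). MLXIPL (ENSG00000009950; chromosome 7, 73593194 to 73624543) encodes ChREBP, the sensor of liver and fat. It had 3.8, 5 and 5.23 CPM in shCtrl and 2.74, 2.02 and 2.48 CPM in shAC007128.1, with no overlap, and a log2 fold change of -0.95 (SE 0.21). Per length MLXIP was 6.39 ± 1.22 times MLXIPL in shCtrl and 21.3 ± 4.09 times in shAC007128.1 (SD, n = 3).

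MLX (ENSG00000108788; chromosome 17, 42567072 to 42573239), the partner of both sensors, had 61.3, 86.8 and 78.1 CPM in shCtrl and 71.3, 62.7 and 54.6 CPM in shAC007128.1. These groups overlapped, and the log2 fold change of -0.26 (SE 0.15) was not distinguished from the spread between samples. Of its exonic bases 18.2% are shared with PSMC3IP on the opposite strand. MNT (ENSG00000070444; chromosome 17, 2384073 to 2401104) had 41.7, 42.1 and 41.9 CPM in shCtrl and 37.1, 38.8 and 30.4 CPM in shAC007128.1. The groups did not overlap, and the log2 fold change was -0.24 (SE 0.11), with 12.2% of its exonic bases shared with an antisense gene. The ratio of MLXIP to MLX in TPM was 0.351 ± 0.0676 in shCtrl and 0.719 ± 0.113 in shAC007128.1. By this measure MLX was above MLXIP in both groups. The ratio rests on the exonic lengths used and on an MLX count that may include reads of PSMC3IP.

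TXN (ENSG00000136810; chromosome 9, 110243810 to 110256507), the small redox protein that TXNIP binds, was by far the most abundant member. It had 422, 404 and 399 CPM in shCtrl and 525, 500 and 588 CPM in shAC007128.1. The groups did not overlap, with a log2 fold change of 0.40 (SE 0.08).

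Of the 10 members 9 passed the filter on low counts. Of these 1 member, ARRDC4, was called higher, where 5.57% of all genes tested were, and 0 members were called lower, where 10.1% were. DESeq2 and limma-voom likewise called 1 higher and 0 lower. At an adjusted p of at most 0.05 with no limit on fold change, 4 members were higher (21.0% of all genes) and 3 lower (19.8% of all genes), the same counts as at an unadjusted p under 0.05. Of all 19254 genes tested, 4803 were higher and 4660 lower at that unadjusted p. The groups did not overlap for 8 of the 9, against 55.2% of all genes tested. In 4 of these every shAC007128.1 sample was higher (27.0% of all genes) and in 4 lower (28.2% of all genes). Since this contrast chose the members, nothing is read from these shares.

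**Figure D4:**
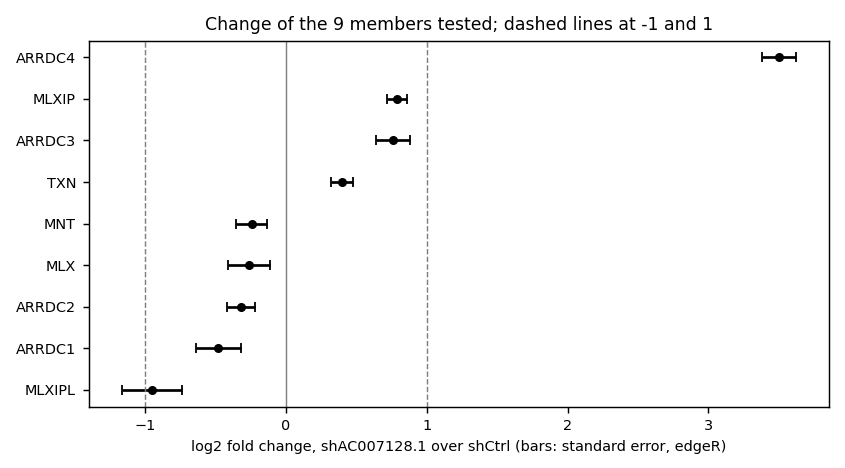
Log2 fold change of shAC007128.1 over shCtrl for the 9 members tested (points), with the edgeR standard error (bars) and dashed lines at the limits of -1 and 1. ARRDC4 stands at 3.50, all others lie between -0.95 and 0.79.

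In the order of levels per length in shCtrl, TXN (1287 TPM) came first, then MLX (56.5), ARRDC1 (46), ARRDC2 (21.9), MLXIP (19.3), ARRDC3 (16.3), MNT (15.3), ARRDC4 (8.15), MLXIPL (3.1) and TXNIP. The ranges of MLX and ARRDC1 overlapped, as did those of ARRDC3 and MNT. In shAC007128.1 TXN (1673 TPM) was followed by ARRDC4 (91.2), MLX (46.5), MLXIP (33), ARRDC1 (32.6), ARRDC3 (27.2), ARRDC2 (17.4), MNT (12.8), MLXIPL (1.57) and TXNIP. There the range of ARRDC1 overlapped those of both MLXIP and ARRDC3. ARRDC4 thus moved from the eighth to the second place.

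The 5 genes whose pattern lay nearest to that of ARRDC4 were found by the distance over the 6 samples between log2 CPM values, each less its shCtrl mean, among 11957 genes. They were HSPA1A (distance 0.63), HSPA1B (0.66), HSPA8 (1.03), FRK (1.19) and KRT15 (1.31). The first 3 are HSP70 chaperone genes, of which HSPA1A and HSPA1B are near-identical, so that their reads can be split between them. FRK is a SRC-family kinase and KRT15 a basal keratin. FRK went from 12.8 ± 0.553 to 90.6 ± 9.24 CPM and KRT15 from 23 ± 2.56 to 166 ± 24.3 CPM (SD, n = 3).

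Around the members, 110 genes of 10 lists were in the table and 93 were tested. Of these 7 were called higher, 7 of 93 against 5.57% of all genes, and 10 lower, against 10.1%. Their median log2 fold change was 0.06, where that of all genes was -0.02. DESeq2 and limma-voom gave the same 2 counts. The lists are described here in the order of the pathway, and the calls are edgeR's with p adjusted over all genes tested. The shares over all genes, which apply to every list, were 5.57% called higher and 10.1% called lower. With no limit on fold change they were 21.0% and 19.8%. At an unadjusted p under 0.05, 4803 of the 19254 genes tested were higher and 4660 lower. No list was tested against these shares.

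Glucose entry and glucose 6-phosphate feed the sensor. Of 13 tested genes 3 were called lower and 0 higher, against 10.1% and 5.57% of all genes. At an unadjusted p under 0.05, 5 were lower and 3 higher, against 4660 and 4803 of all 19254 genes tested. The hexokinase-like HKDC1 went from 4.50 ± 1.03 to 1.07 ± 0.252 CPM (log2 fold change -2.07, SE 0.27, edgeR adjusted p = 0.000937). The lysosomal transporter SLC2A6 fell from 10.3 ± 0.492 to 4.33 ± 0.341 CPM (edgeR adjusted p = 0.000457). The insulin-regulated transporter SLC2A4 had 176 to 271 counts in shCtrl and 38 to 94 in shAC007128.1 (edgeR adjusted p = 0.0258). That call was lost in 3 of the 6 fits with a sample left out: without shCtrl replicate 1 (-1.14), without shCtrl replicate 3 (-1.28) and without shAC007128.1 replicate 3 (-1.35). The replicate block likewise ended it (-1.36). The main transporter SLC2A1 (GLUT1), a cargo of TXNIP and ARRDC4, went from 298 ± 4.56 to 219 ± 15.7 CPM, or -0.44 on the log2 scale (SE 0.07, edgeR adjusted p = 0.00249), short of the limit on fold change. HK2, the inducible hexokinase, was at -0.39 (SE 0.06). The 3 higher genes, all short of the limit, were SLC2A12 at 0.94 (SE 0.10), SLC2A14 at 0.78 (SE 0.25) and SLC2A8 at 0.57 (SE 0.12). Of the exonic bases of SLC2A12 51.2% are shared with TBPL1 on the opposite strand. SLC2A3 was at 0.06 (SE 0.07) and HK1 at -0.02 (SE 0.14). SLC2A1, HK2 and the genes given after them were named after their values were seen.

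Among 20 genes known as ChREBP targets in liver 13 were tested. Of these 4 were called higher and 2 lower, against 5.57% and 10.1% of all genes. At an adjusted p of at most 0.05 with no limit on fold change, 6 were higher and 5 lower. Of all genes 21.0% and 19.8% were. The lipogenic enzymes ACLY and FASN went from 231 ± 6.31 to 513 ± 29.1 CPM and from 373 ± 5.77 to 858 ± 77.0 CPM. Their log2 fold changes were 1.15 (SE 0.07, edgeR adjusted p = 4.15e-05) and 1.20 (SE 0.08, edgeR adjusted p = 5.39e-05). The fatty acid elongase ELOVL6 rose with a log2 fold change of 1.41 (SE 0.13, edgeR adjusted p = 0.00021). KLF10, a repressor in the same circuit and also a TGF-beta response gene, rose from 15.9 ± 0.237 to 53.3 ± 6.27 CPM (edgeR adjusted p = 4.95e-05). TKFC, which phosphorylates glyceraldehyde in fructose breakdown, fell from 95.2 ± 1.47 to 37.5 ± 4.05 CPM (edgeR adjusted p = 8.59e-05), and some of its exonic bases are shared with CYB561A3 and DDB1. The hormone gene FGF21 had 37, 55 and 29 counts in shCtrl and 0 in every shAC007128.1 sample (edgeR adjusted p = 0.00206). Against a floor of 3 counts per library that is at least 10.1-fold lower, if each count was 1 read. Low values pile up at 4, 8 and 12, so this bound is uncertain. FGF21 was not among the genes tested with counts divided by 4 or with at least 10 counts required in every sample. In both settings 1 gene of the list was called lower. The liver gene PKLR had 5 counts in shCtrl replicate 3 and 0 in the other samples and was not tested. The median of this list was 0.06. Whether ChREBP or other factors had a part in these changes was not tested.

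In the MAX network, which shares MNT with the sensors, 1 of 8 tested genes was called lower and 0 higher (2 and 1 at an unadjusted p under 0.05). MYCL fell from 34.7 ± 0.530 to 10.9 ± 0.462 CPM (log2 fold change -1.68, SE 0.09, edgeR adjusted p = 3.61e-05). MXI1, named after its values were seen, had a log2 fold change of -1.11 that was not called, but was called lower without shCtrl replicate 2 (-1.43) or shAC007128.1 replicate 2 (-1.61). MXD1 had 6183 counts in shCtrl replicate 2 against 958 to 1346 in the other two, and 2622 in shAC007128.1 replicate 2 against 457 to 524.

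Of 9 NEDD4 family ligases, which alpha-arrestins bring to their cargo, 1 was called higher and 0 lower (3 and 2 at an unadjusted p under 0.05). NEDD4 rose from 31.9 ± 3.86 to 87.3 ± 7.25 CPM (log2 fold change 1.45, SE 0.12, edgeR adjusted p = 0.000126). Of 7 ESCRT and adaptor genes 0 were called (2 higher and 1 lower at an unadjusted p under 0.05). The member with the smallest p was TSG101, the ESCRT protein that ARRDC1 binds, at -0.50 (SE 0.07, edgeR adjusted p = 0.00127), followed by NDFIP1 at 0.34 (SE 0.08, edgeR adjusted p = 0.0104). Of 8 known cargo genes, 2 were called lower and 0 higher (3 and 2 at an unadjusted p under 0.05). SLC2A4, described with the glucose transporters, was among those called. Of 6 tested genes of the other arrestin-fold list (ARRB1, ARRB2, ARR3, VPS26A, VPS26B and VPS26C), 0 were called and 1 was higher at an unadjusted p under 0.05. ARRDC5 of this list, also an alpha-arrestin, had 0 to 12 counts, was not tested and is not in the alpha-arrestin sums above. The smallest adjusted p there was 0.0855 (edgeR), for VPS26A at a log2 fold change of 0.66 (SE 0.27), followed by VPS26B at 0.13 (SE 0.10, edgeR adjusted p = 0.336).

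All 23 genes of the thioredoxin system were tested, and 1 was called higher and 2 lower. PRDX1, a peroxiredoxin that thioredoxin reduces, rose from 236 ± 2 to 617 ± 23.4 CPM (log2 fold change 1.39, SE 0.06, edgeR adjusted p = 1.73e-05), and 29.8% of its exonic bases are shared with MMACHC on the opposite strand. PRDX5 went from 209 ± 6.33 to 104 ± 38.7 CPM, with a log2 fold change of -1.01 (SE 0.26, edgeR adjusted p = 0.0188). Without shAC007128.1 replicate 3 it was -0.74 and not called, and it was also not called without shCtrl replicate 1 (-0.99) or shCtrl replicate 3 (just short of the limit). Sulfiredoxin SRXN1 was at -1.01 (SE 0.07, edgeR adjusted p = 7.1e-05), but 90.7% of its exonic bases are shared with another gene on the same strand, so its count is uncertain. Its call was lost without shCtrl replicate 2 (-0.98), shAC007128.1 replicate 2 (-0.99) or shAC007128.1 replicate 3 (-0.99). With no limit on fold change 9 of the 23 were higher (21.0% of all genes) and 4 lower (19.8% of all genes), and the median log2 fold change was 0.28 (-0.02 over all genes). Whether the list differs from other genes was not tested.

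Of 6 tested subunits of AMPK, the kinase that marks TXNIP for breakdown, PRKAA2 was called higher and 0 lower (2 higher and 3 lower at an unadjusted p under 0.05). PRKAA2 had 4, 0 and 4 counts in shCtrl and 16, 20 and 24 in shAC007128.1 (edgeR adjusted p = 0.0256). The more abundant catalytic subunit PRKAA1, named after its values were seen, went from 112 ± 1.69 to 194 ± 30.2 CPM, or 0.80 on the log2 scale (SE 0.11, edgeR adjusted p = 0.00133). The 3 lower subunits were PRKAG1 at -0.73 (SE 0.08), PRKAB2 at -0.65 (SE 0.09) and PRKAB1 at -0.53 (SE 0.16). Their edgeR adjusted p were 0.0004, 0.00109 and 0.0303, and they too were named after their values were seen. Of the exonic bases of PRKAG1 49.5% are shared with another gene on the same strand, so its count is uncertain. The PRKAA2 call was lost without any 1 sample except shCtrl replicate 2, with log2 fold changes of 3.05 to 3.63. It was also lost with the replicate block (3.37) and with no filter on low counts (3.15), and 0 AMPK genes were called higher with at least 10 counts required in every sample or with counts divided by 4. Of the antisense neighbours of the members ARRDC3-AS1, described above, was called lower, while ARRDC1-AS1 was not called, with a log2 fold change of -0.22 (SE 0.12, edgeR adjusted p = 0.201).

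**Figure D5:**
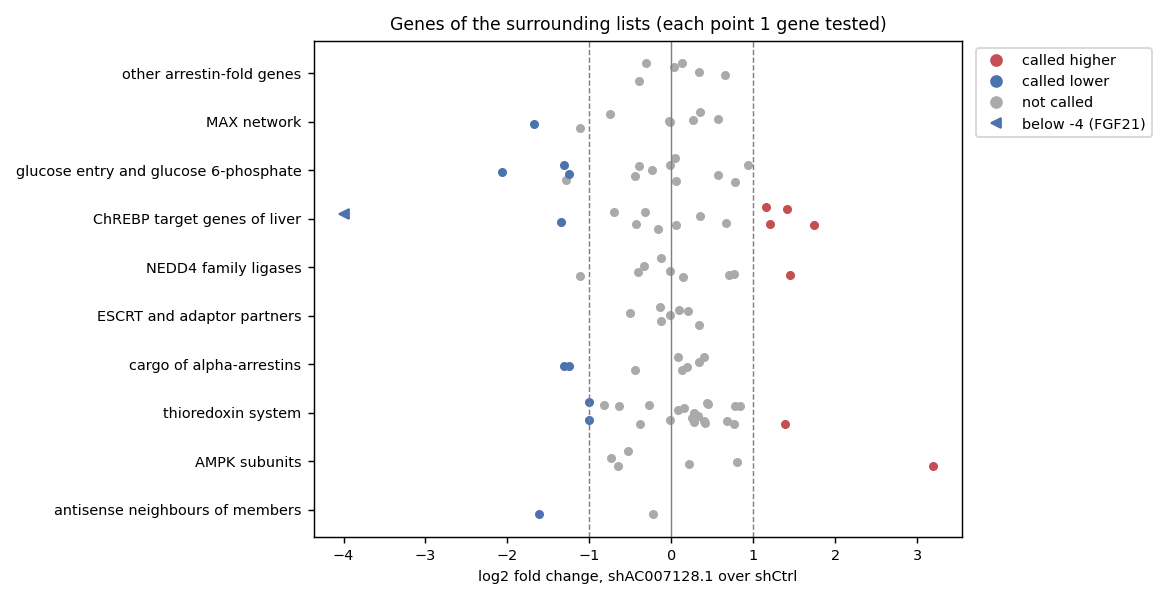
Log2 fold change of shAC007128.1 over shCtrl for each tested gene of the 10 surrounding lists, 1 point per gene, called genes in red (higher) or blue (lower) and the limits of -1 and 1 dashed. Calls fall on both sides of 0, with 4 red and 2 blue among the ChREBP targets, and the arrow marks FGF21, whose value lies beyond the lower end of the axis.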

How the data were processed

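RNA was sequenced from 3 shCtrl and 3 shAC007128.1 samples of KYSE150 cells as poly-A selected TruSeq paired-end libraries. Per the study's methods, filtered reads went through TopHat (hg38) and Cufflinks. What the authors deposited is 1 table of estimated counts by Ensembl gene, as whole numbers with no scaling. The submitters' processing notes name CASAVA 1.8 and TopHat2 2.0.6. The counting program, annotation release and use of strand are not given in the sources used here. Columns were matched to samples by title or description, and 0 were left unmapped. The labels' treatment text names shAC007128.1 for every sample.

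Symbols, positions and exons come from GENCODE v44 on hg38, which held 60357 of the 67140 identifiers (89.9%). edgeR 4.0.16 in R 4.3.3 was used with filterByExpr (47886 genes removed), TMM and glmQLFTest. Standard errors are the log2 fold change over the root of F. TPM used the union of exons. Alternatives were DESeq2 1.42.0, limma-voom 3.58.1, other scaling and filters, the replicate block, counts divided by 4 (low values pile up at 4, 8 and 12) and each sample left out. The steps were tested on simulated counts.

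Members and lists were chosen with earlier results of these data known. Named are all members, AC007128.1, up to 4 called genes per direction with the smallest p in each list (else 2), and the 5 nearest to ARRDC4 (TXNIP was too low for this). Further genes are markers, neighbours, genes at or near 0, or ones picked with their values in view. MNT-AS1 was not matched, and protein sequences were not used here. Some genes of the lists are not reported here.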

Additional observations from a re-analysis of the deposited data

How the results depend on the processing

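The direction held for all 9 tested members in all 14 refits, and the call of ARRDC4 did too, with log2 fold changes of 3.41 to 3.59. MLXIPL, at -0.95, crossed the limit on fold change with library size only (-1.03), which made 1 member called lower. With each sample left out its value was -1.09 to -0.84 and 0 to 1 members were called lower. MLXIPL was that member, without shCtrl replicate 1 (-1.09) and without shAC007128.1 replicate 1 (-1.06). Dropping the limit on fold change gave 4 members higher and 3 lower, 27 and 22 genes of the surrounding lists, and 4041 and 3820 of all genes. With the longest transcript ARRDC4 held 7.46% of alpha-arrestin TPM in shCtrl and 49.7% in shAC007128.1. Deviations of same-numbered samples correlated at 0.0306, -0.0254 and -0.0299, so over all tested genes the numbers did not show pairing. Single genes could still share a pattern by number, as MXD1 did in replicate 2 of both groups. With the replicate block ARRDC4 was at 3.50, 1 member was called higher and 0 lower, all genes gave 977 and 1692, and the surrounding lists 6 and 9. With no limit on fold change ARRDC1 (-0.48) was lower in 8 and ARRDC2 (-0.32) in 9 of the 14 refits, and the block was among those where each was not. The other members kept their side of an adjusted p of 0.05 in all 14. Without shAC007128.1 replicate 2 AC007128.1 was at -1.29 and not called. TXNIP, AC007128.1 and PRKAA2 had few counts (at most 4, 69 and 24 in any sample). The cause of these changes was not tested.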
